A study of Mus musculus with 8 samples.

Results

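Transcript levels of 39 enzymes, transporters and regulators of glycolysis and the citric acid cycle were examined in mouse gastric squamous-columnar junction (SCJ) cancers and in control SCJ tissue. The 39 genes were chosen by symbol from a fixed list, 22 for glycolysis with lactate handling and 17 for pyruvate entry and the citric acid cycle. All 39 were found among the 23361 genes of the deposited RNA-seq values, pyruvate carboxylase (Pc) under its alternative symbol Pcx. The cancer group held 5 SCJ cancers labelled Trp53-/-Rb1-/-. They came from Lgr5eGFP-Ires-CreERT2 mice with floxed Trp53 and Rb1 alleles and the Ai9 tdTomato reporter, in which tamoxifen activates Cre in Lgr5-expressing cells and not in other cells of the tissue. Tamoxifen was given in 3 injections at 6 to 10 weeks of age, and cancers were dissected along the tdTomato border at least 250 days later. The control group held the SCJ compartment of 3 wild type stomachs, paired for age. The paper states that control mice of its tumour induction experiments were also given tamoxifen. It does not state whether the 3 wild type mice used here were among them, or whether they carried Cre. Both groups were whole tissue, so that fewer cells of a type and less RNA per cell cannot be told apart in any value below.

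Glycolysis splits glucose into pyruvate in the cytosol. Lactate dehydrogenase can then reduce pyruvate to lactate, which leaves the cell through monocarboxylate transporters, or pyruvate can enter mitochondria, where pyruvate dehydrogenase turns it into the acetyl-CoA that feeds the citric acid cycle. Several steps are catalysed by isozymes from separate genes, and cell types differ in the isozyme they use. In the stomach the acid-secreting parietal cells are packed with mitochondria, and tumours are often described as favouring glycolysis.

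The 39 genes were lower in the cancers far more often than higher when FPKM (sequenced fragments per kilobase of transcript per unit of library size, here rounded to whole numbers) was compared as deposited. Genes were tested on log2(FPKM + 1) with limma over 14357 genes, with the Benjamini-Hochberg adjustment and a threshold of 0.05. Of all genes tested, 34.5% passed, 16.2% higher and 18.3% lower in the cancers. Among the 22 glycolysis genes, 2 were higher, 10 were lower and 10 did not pass, with a median log2 fold change of -0.84. Among the 17 genes of pyruvate entry and the citric acid cycle, 1 was higher, 13 were lower and 3 did not pass, with a median log2 fold change of -1.04. These counts were sensitive to single samples. Leaving one out gave 3 to 13 glycolysis genes lower, 6 to 15 of the 17 lower, and 2490 to 5252 calls over all genes. The median over all genes tested was -0.04, and 18 of the 22 and 16 of the 17 lay below it. Groups did not overlap for 13 of the 22 and 15 of the 17, whereas this held for 34.1% of all genes tested, 14.4% with the cancers higher and 19.8% with the cancers lower.

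The sign of many of these changes depended on the scaling of the libraries. FPKM summed to between 887141 and 992550 in the controls and to between 403569 and 573858 in the cancers, and the 10 most abundant genes took 39.3% to 44.3% of the sum in the controls against 11.1% to 19.6% in the cancers. When every library was rescaled to the same sum (the TPM scale), the all-gene median moved to 0.81 on the log2 scale, and 50% of all genes passed as higher and 3.68% as lower. On that scale the glycolysis median was 0.02 with 6 genes higher and 1 lower, and the median of pyruvate entry and the citric acid cycle was -0.08 with 1 higher and 2 lower. TPM moves all genes of a library alike, so the distance of the medians from that of all genes barely changed, at -0.80 and -0.79 for glycolysis and -1.01 and -0.89 for the citric acid cycle genes. Quantile normalization, which can change that distance, gave -0.43 and -0.68, with 16 of the 22 and 16 of the 17 genes below the all-gene median. Directions given below are those of the FPKM as deposited, and each TPM value is to be read against 0.81.

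**Figure D1:**
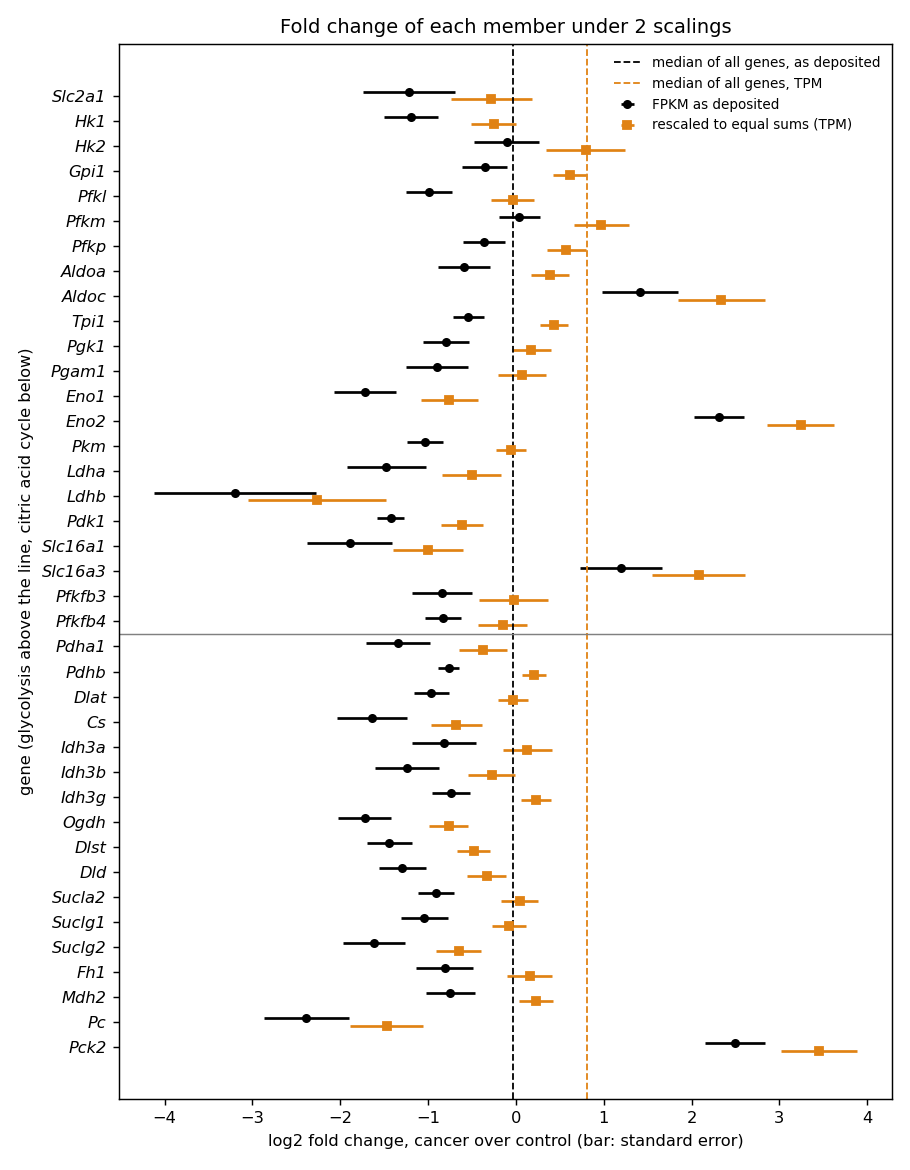
Fold change of each gene on the log2 scale, cancer over control, from FPKM as deposited (black circles) and as TPM (orange squares), with bars for the standard error and dashed lines for the median of all genes tested. The orange points sit to the right of the black ones by close to the shift between the dashed lines, and only Pfkm, Aldoc, Eno2, Slc16a3 and Pck2 lie to the right of the dashed line on both scales.

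In the upper part of the pathway Hk1 and Pfkl passed as lower. Hk1, the broadly expressed hexokinase that phosphorylates glucose, had FPKM of 14, 35, 23, 32 and 37 in cancers 1 to 5 and 59, 63 and 66 in controls 1 to 3. No cancer reached the lowest control, and the log2 fold change was -1.20 (standard error 0.31, limma adjusted p = 0.022). Pfkl, the liver-type phosphofructokinase, stood at 21, 26, 16, 34 and 31 against 40, 53 and 59 (log2 fold change -0.99, standard error 0.26, limma adjusted p = 0.024), again without overlap. With TPM the 2 genes had log2 fold changes of -0.25 and -0.04, both below the median of all genes. The call of Hk1 was lost without cancer 3 or without any single control (limma adjusted p 0.053 to 0.074), and that of Pfkl without control 2 or 3 (0.082 and 0.090).

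Slc2a1, Hk2, Gpi1, Pfkm, Pfkp and Aldoa did not pass as deposited. Slc2a1, the glucose transporter GLUT1, varied widely among the cancers, at 9, 20, 12, 43 and 41, against 56, 41 and 54 in the controls. Cancer 4 lay inside the control range and cancer 5 was level with control 2 (log2 fold change -1.22, limma adjusted p = 0.10). Hk2, the hexokinase often found induced in tumours, had a cancer mean of 9.2 ± 4.38 (SD, n = 5) and a control mean of 9.67 ± 3.79 (SD, n = 3). Its log2 fold change was -0.11 as deposited and 0.80 with TPM, next to the median of all genes in both cases. Gpi1, Pfkp and Aldoa, for glucose phosphate isomerase, the platelet-type phosphofructokinase and the main aldolase, had log2 fold changes of -0.36, -0.37 and -0.59, and these turned to 0.61, 0.57 and 0.39 with TPM. Pfkm, the muscle-type phosphofructokinase, had a log2 fold change of 0.04 and overlapping groups. Of these, Gpi1 and Pfkm passed as higher with TPM (limma adjusted p = 0.025 and 0.030).

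Aldoc, the aldolase best known from brain, was one of the 2 glycolysis genes that rose. Its FPKM in cancers 1 to 5 was 10, 11, 12, 5 and 27, compared with 3, 4 and 4 in controls 1 to 3. Cancer 5 was the highest and cancer 4 only 1 unit above the controls (log2 fold change 1.41, standard error 0.43, limma adjusted p = 0.040, and 2.34 with TPM). The call was lost without cancer 1, 2 or 3 or without any single control (limma adjusted p 0.063 to 0.12). Aldoc remained a minor part of aldolase transcripts, since Aldoa stood at 308 to 709 FPKM in the cancers and 620 to 741 in the controls.

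**Figure D2:**
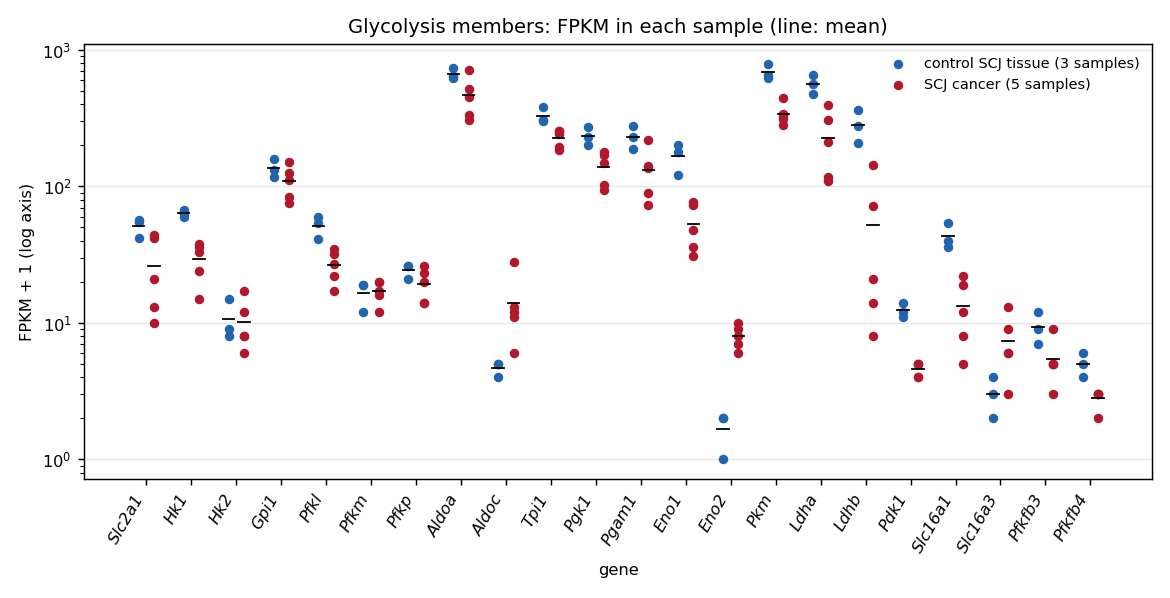
FPKM + 1 on a log axis for the 22 glycolysis genes, with a point for each sample (blue, 3 controls; red, 5 cancers) and a line at the group mean. Aldoc and Eno2 are the only genes with every cancer above every control, and Ldhb shows the widest spread among the cancers, from 7 to 143 FPKM.

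In the lower part of the pathway Pgk1 and Pkm passed as lower, whereas Tpi1 and Pgam1 did not pass. Tpi1 (triosephosphate isomerase) had FPKM of 195, 253, 185, 253 and 243 against 305, 298 and 381, without overlap yet just short of the threshold (log2 fold change -0.54, limma adjusted p = 0.051), and it passed in the other direction with TPM (0.43, limma adjusted p = 0.046). Pgk1 (phosphoglycerate kinase), at 101, 147, 93, 177 and 169 against 271, 229 and 200, fell by 0.80 on the log2 scale (limma adjusted p = 0.048) and turned to 0.17 with TPM. Both lay below the median of all genes with either scaling. The Pgk1 call was lost without cancer 1, 2 or 3 or any single control (limma adjusted p 0.061 to 0.15). Pgam1 (phosphoglycerate mutase) had FPKM of 72, 136, 89, 216 and 139 against 186, 228 and 276, with cancer 4 inside the control range (log2 fold change -0.90, limma adjusted p = 0.082, and 0.07 with TPM). Pkm, the pyruvate kinase of most tissues, fell from 690.0 ± 89.6 (SD, n = 3) to 338.8 ± 64.0 (SD, n = 5). All 5 cancers, at 279, 336, 320, 447 and 312, were below the controls at 620, 659 and 791 (log2 fold change -1.03, standard error 0.20, limma adjusted p = 0.0085, and -0.06 with TPM), and this call held without any single sample.

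Enolase, which makes phosphoenolpyruvate, was represented by 2 isozymes that moved in opposite directions. Eno1, the ubiquitous alpha enolase (chromosome 4, 150237197 to 150248873, mm10), was at 35, 47, 30, 72 and 76 FPKM in cancers 1 to 5 and 121, 199 and 179 in controls 1 to 3. Every control was above every cancer, and the control mean was 3.20-fold higher (log2 fold change -1.72, standard error 0.35, limma adjusted p = 0.010, and -0.76 with TPM). Eno2, the gamma enolase of neurons and neuroendocrine cells (chromosome 6, 124760055 to 124769509), showed the reverse, at 8, 5, 9, 6 and 7 against 0, 1 and 1. The groups were again apart (log2 fold change 2.31, standard error 0.28, limma adjusted p = 0.0019, and 3.24 with TPM), although the rounded control values of Eno2 are at or next to the lowest step of the scale, so that the size of its change is poorly fixed. Both calls held without any single sample. Eno1 shares near-identical sequence with the copy Gm5506 (Eno1b), listed at 22, 51, 26, 73 and 34 against 65, 79 and 88, and reads of the 2 may have been divided between them. With both added, a step chosen after the data were seen, the log2 fold change of Eno1 was -1.45 (limma adjusted p = 0.018).

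The start regions of the 2 enolase genes differ as well, and are shown because these isozymes moved apart. Each run covers 250 bases before to 50 bases after the annotated start (RefSeq, GRCm38.p6), written along the transcribed strand, at chr4:150236947-150237246 on the plus strand for Eno1 and chr6:124769624-124769923 on the minus strand for Eno2. Capitals mark ACGTG (the core recognised by hypoxia-inducible factors and, within CACGTG, by MYC and other E-box factors), CCAAT and GGGCGG (a GC box), each on either strand.
Eno1: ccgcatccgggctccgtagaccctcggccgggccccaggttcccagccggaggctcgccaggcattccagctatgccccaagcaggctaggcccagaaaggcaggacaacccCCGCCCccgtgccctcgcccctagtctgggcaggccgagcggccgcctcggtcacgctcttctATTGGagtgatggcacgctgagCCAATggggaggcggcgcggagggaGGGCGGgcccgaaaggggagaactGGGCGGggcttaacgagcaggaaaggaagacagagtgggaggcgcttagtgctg
Eno2: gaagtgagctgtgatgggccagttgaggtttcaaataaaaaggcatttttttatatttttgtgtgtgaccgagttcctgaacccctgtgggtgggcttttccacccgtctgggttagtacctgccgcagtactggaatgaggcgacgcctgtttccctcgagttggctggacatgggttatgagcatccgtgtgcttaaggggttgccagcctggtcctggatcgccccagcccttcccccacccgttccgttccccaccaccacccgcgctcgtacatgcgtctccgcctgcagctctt
The Eno1 run holds 2 CCAAT and 3 GGGCGG matches, and the Eno2 run holds 0 matches to any of the 3. A match is a string of letters in this window and was not tied to binding.

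Lactate dehydrogenase transcripts were lower in the cancers for both the muscle-type subunit (Ldha) and the heart-type subunit (Ldhb). Ldha, which favours the making of lactate (chromosome 7, 46845804 to 46855627), had FPKM of 109, 304, 117, 393 and 211 against 651, 478 and 563. Ldhb (chromosome 6, 142490249 to 142507943) had FPKM of 7, 71, 13, 143 and 20 against 207, 363 and 276. Cancers 2 and 4 were the highest and cancers 1 and 3 the lowest for both genes, yet no cancer reached a control. Ldha changed by -1.48 on the log2 scale (standard error 0.45, limma adjusted p = 0.040, and -0.50 with TPM). Ldhb had a log2 fold change of -3.20 (standard error 0.92, limma adjusted p = 0.032), the most negative of the 39 genes, and it also passed with TPM (-2.27, limma adjusted p = 0.038). The Ldha call was lost without cancer 1, 3 or 5 or any single control (limma adjusted p 0.063 to 0.12), and the Ldhb call without cancer 3 or 5 or any single control (0.065 to 0.10).

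The corresponding start regions are shown so that these paired isozymes can be compared, at chr7:46845554-46845853 on the plus strand for Ldha and chr6:142507908-142508207 on the minus strand for Ldhb, with capitals as above.
Ldha: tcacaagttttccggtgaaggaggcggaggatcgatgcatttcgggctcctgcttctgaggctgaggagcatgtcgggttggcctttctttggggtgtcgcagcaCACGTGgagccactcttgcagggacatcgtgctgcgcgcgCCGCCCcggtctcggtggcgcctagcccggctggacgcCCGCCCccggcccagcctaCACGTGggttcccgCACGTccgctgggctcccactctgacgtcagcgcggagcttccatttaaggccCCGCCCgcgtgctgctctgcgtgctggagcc
Ldhb: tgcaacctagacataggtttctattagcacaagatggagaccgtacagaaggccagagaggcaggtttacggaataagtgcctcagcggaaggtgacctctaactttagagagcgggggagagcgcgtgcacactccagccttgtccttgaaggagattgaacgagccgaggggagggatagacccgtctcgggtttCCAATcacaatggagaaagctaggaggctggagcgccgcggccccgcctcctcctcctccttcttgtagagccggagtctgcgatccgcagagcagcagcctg
The Ldha run holds 5 ACGTG matches, of which each CACGTG gives one on either strand, and 3 GGGCGG matches, whereas the Ldhb run holds 1 CCAAT match. Of 14930 promoters of the same length, 21.4% held ACGTG, 38.9% CCAAT and 48.8% GGGCGG. Among the glycolysis genes with such a window, 8 of 21 (38.1%) held ACGTG, 8 of 21 CCAAT and 16 of 21 (76.2%) GGGCGG. Among the citric acid cycle genes these counts were 4 of 16 (25.0%), 9 of 16 (56.3%) and 11 of 16 (68.8%).

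Of the lactate transporters among the 39 genes, Slc16a1 was lower and Slc16a3 did not pass. Slc16a1 (MCT1), which moves lactate and pyruvate either way, dropped to 4, 21, 7, 18 and 11 FPKM in cancers 1 to 5, against 53, 35 and 39 in controls 1 to 3 (log2 fold change -1.89, standard error 0.49, limma adjusted p = 0.022, and the direction was the same with TPM). No cancer reached a control, but the call was lost without cancer 3 or any single control (limma adjusted p 0.053 to 0.086). Slc16a3 (MCT4), the lactate exporter of highly glycolytic cells, had FPKM of 5, 2, 5, 8 and 12 against 3, 1 and 2. Cancer 2 lay inside the control range, and the gene did not pass as deposited (log2 fold change 1.20, limma adjusted p = 0.079) but did with TPM (2.08, limma adjusted p = 0.012). Slc16a7 (MCT2), which was not among the 39 genes, fell with them, from 36, 58 and 40 FPKM to 4, 6, 5, 20 and 8 (log2 fold change -2.43, limma adjusted p = 0.0073).

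Regulators of the 2 branch points were low in all samples. Pdk1, the kinase that switches off pyruvate dehydrogenase and a classic hypoxia target, had FPKM of 3, 3, 4, 4 and 4 against 11, 13 and 10. The cancers hardly varied and stood 3.15-fold below the controls in the mean (log2 fold change -1.42, standard error 0.15, limma adjusted p = 0.0012), with the call holding without any single sample, and -0.61 with TPM (limma adjusted p = 0.058). Pfkfb4, which sets the level of the phosphofructokinase activator fructose 2,6-bisphosphate, had FPKM of 1, 2, 2, 2 and 2 against 3, 5 and 4 (log2 fold change -0.83, limma adjusted p = 0.019, and -0.15 with TPM), and lost its call without control 2 or 3 (0.079 and 0.062). Pfkfb3, the isozyme most often linked to proliferating cells, had FPKM of 4, 4, 2, 4 and 8 against 6, 8 and 11. Cancer 5 was within the control range, and the gene did not pass (log2 fold change -0.84, limma adjusted p = 0.090).

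Because a share within a library does not depend on the scaling, the composition of 8 isozyme families was compared for 10 genes with an exact permutation test (two-sided, all 56 ways to divide 8 samples into 5 and 3, smallest possible p = 0.018). After Benjamini-Hochberg adjustment over the 10 tests 0 shares passed (lowest adjusted p = 0.11), and 1 had an unadjusted p under 0.05. That was Eno2, whose share of the FPKM of Eno1 and Eno2 was 18.6, 9.62, 23.1, 7.69 and 8.43% in cancers 1 to 5 against 0, 0.50 and 0.56% in controls 1 to 3 (exact permutation p = 0.036). Every cancer exceeded every control, and with Gm5506 added to Eno1 the cancer mean was 8.19 ± 4.55% (SD, n = 5) against 0.24 ± 0.21% (SD, n = 3).

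The other shares had p above the threshold. Slc16a3 took 37.8 ± 18.9% (SD, n = 5) of the summed FPKM of Slc16a1 and Slc16a3 in the cancers and 4.34 ± 1.37% (SD, n = 3) in the controls, without overlap (exact permutation p = 0.054, adjusted 0.11). Ldhb took 14.1 ± 8.56% (SD, n = 5) against 33.4 ± 9.53% (SD, n = 3) of lactate dehydrogenase, with cancer 4 at 26.7% inside the control range of 24.1 to 43.2% (exact permutation p = 0.054). Pfkl fell short of the threshold at the same p, with 42.1 ± 7.23% (SD, n = 5) against 56.2 ± 3.13% (SD, n = 3) of phosphofructokinase and cancer 4 inside the control range. Aldoc took 3.01 ± 1.84% against 0.54 ± 0.07% of aldolase (exact permutation p = 0.071, n = 5 and 3), with no cancer down to a control. The shares of Hk2, Pfkm, Pfkp and Pfkfb4 overlapped between groups, with exact permutation p from 0.14 to 0.91.

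**Figure D3:**
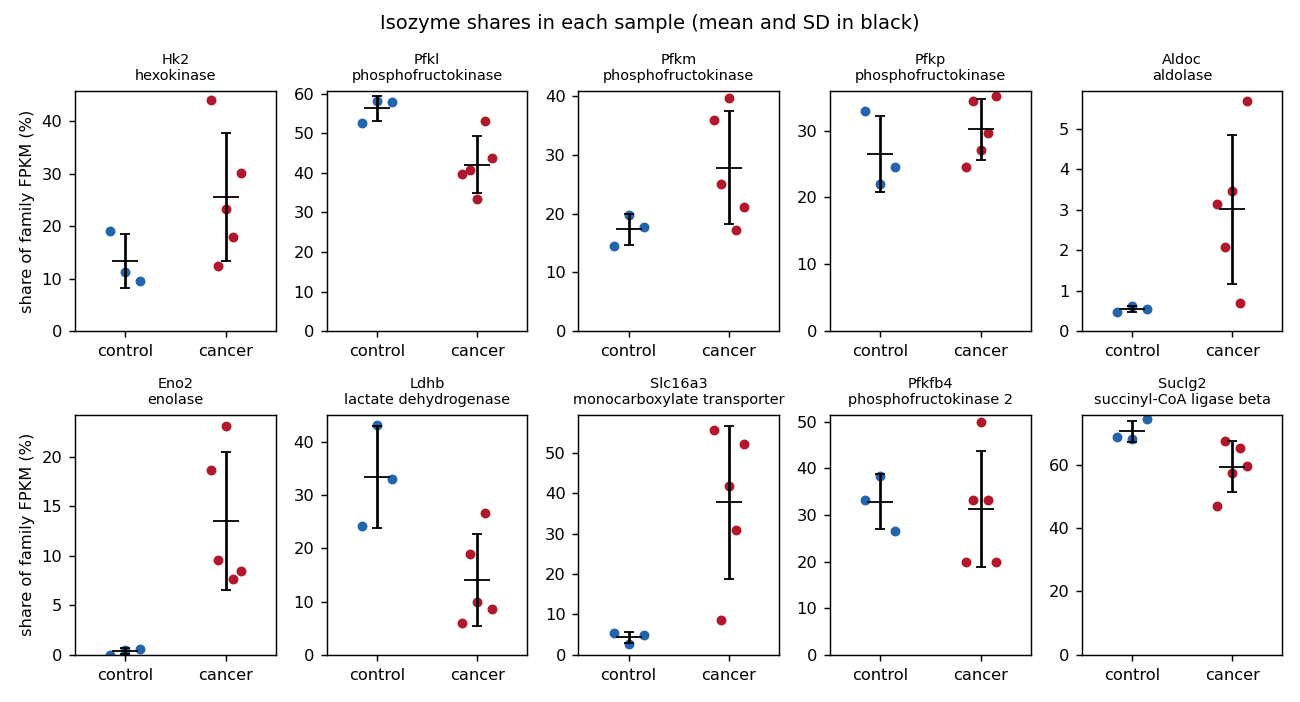
Share of the summed FPKM of each isozyme family taken by one gene, in percent, with a point for each sample (blue, 3 controls; red, 5 cancers) and black bars for the mean and SD. For Eno2, Slc16a3 and Aldoc every cancer lies above every control, and cancer values of Eno2 run from 7.69 to 23.1%.

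Pdha1, Pdhb and Dlat, which encode the E1 and E2 subunits of pyruvate dehydrogenase, were lower. Pdha1, the regulated E1 alpha subunit, had FPKM of 34, 89, 45, 104 and 62 against 161, 175 and 138 (log2 fold change -1.34, standard error 0.36, limma adjusted p = 0.027, and -0.37 with TPM). Pdhb, its partner, was more even, at 54, 66, 55, 64 and 58 against 103, 96 and 105, and had the smallest standard error of the 39 genes (log2 fold change -0.76, standard error 0.12, limma adjusted p = 0.0039), although this turned to 0.20 with TPM, below the median of all genes. Dlat, the E2 core, stood at 11, 19, 12, 18 and 16 against 27, 32 and 31 (log2 fold change -0.96, standard error 0.20, limma adjusted p = 0.011, and -0.03 with TPM). Groups were apart for all 3. The calls of Pdhb and Dlat held without any single sample, and that of Pdha1 was lost without cancer 3 or 5 or any single control (limma adjusted p 0.050 to 0.090).

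Citrate synthase and the 3 subunits of 2-oxoglutarate dehydrogenase were all lower. Cs, citrate synthase, had FPKM of 42, 125, 49, 124 and 78 against 216, 230 and 275 (log2 fold change -1.64, standard error 0.40, limma adjusted p = 0.018, and -0.68 with TPM). Ogdh, the E1 subunit of 2-oxoglutarate dehydrogenase, had FPKM of 28, 59, 26, 52 and 45 against 117, 133 and 155, and it passed under both scalings (log2 fold change -1.72, standard error 0.30, limma adjusted p = 0.0057, and -0.77 with TPM, adjusted p = 0.020). Dlst, the E2 subunit, stood at 32, 57, 32, 51 and 29 against 93, 110 and 119 (log2 fold change -1.44, standard error 0.26, limma adjusted p = 0.0061, and -0.48 with TPM). Even the highest cancer was below the lowest control for each of these genes. Dld, the E3 subunit shared with pyruvate dehydrogenase, fell by 1.29 on the log2 scale (standard error 0.26, limma adjusted p = 0.010, and -0.33 with TPM), from 122, 115 and 76 to 34, 49, 37, 61 and 31 FPKM. Leaving out any single sample kept the calls of Ogdh, Dlst and Dld, whereas that of Cs was lost without any single control (limma adjusted p 0.056 to 0.068).

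Of the 3 subunits of NAD-dependent isocitrate dehydrogenase, Idh3b and Idh3g were lower and Idh3a did not pass. Idh3b had FPKM of 44, 117, 58, 120 and 53 against 166, 191 and 158 (log2 fold change -1.24, standard error 0.37, limma adjusted p = 0.035, and -0.27 with TPM). Idh3g stood at 48, 74, 57, 85 and 51 against 91, 118 and 102 (log2 fold change -0.74, standard error 0.22, limma adjusted p = 0.035), a direction that turned to 0.23 with TPM. Idh3a, the catalytic subunit, did not pass, with cancer 4 at 65 above the controls at 55, 63 and 62 and the other cancers between 19 and 43 (log2 fold change -0.82, limma adjusted p = 0.11, and 0.13 with TPM). Both called subunits lost their call without cancer 1, 3 or 5 or any single control (limma adjusted p 0.058 to 0.11 for Idh3b and 0.060 to 0.12 for Idh3g).

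Succinyl-CoA ligase pairs the alpha subunit Suclg1 with a beta subunit that uses ATP (Sucla2) or GTP (Suclg2). Suclg2 fell from 132, 137 and 116 to 22, 60, 35, 69 and 37 FPKM (log2 fold change -1.61, standard error 0.35, limma adjusted p = 0.013, and -0.65 with TPM). Suclg1 had a log2 fold change of -1.04 (standard error 0.27, limma adjusted p = 0.023, and -0.08 with TPM). Sucla2 stood at 25, 29, 26, 37 and 25 against 60, 64 and 40 (log2 fold change -0.91, standard error 0.20, limma adjusted p = 0.014) and turned to 0.04 with TPM. No cancer reached a control for the 3 genes. Suclg2 took 59.3 ± 8.05% (SD, n = 5) of the beta subunit FPKM in the cancers and 70.4 ± 3.42% (SD, n = 3) in the controls (exact permutation p = 0.054, adjusted 0.11). Without control 1 or 2 the limma adjusted p was 0.059 for Sucla2 and at most 0.052 for Suclg2, and that of Suclg1 was 0.055 to 0.076 without cancer 3 or any single control.

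The last enzymes of the cycle did not pass as deposited. Fh1, fumarate hydratase, had FPKM of 57, 96, 51, 111 and 48 against 131, 142 and 94, with cancers 2 and 4 inside the control range (log2 fold change -0.81, limma adjusted p = 0.087, and 0.16 with TPM). Mdh2, mitochondrial malate dehydrogenase and the most abundant of the 17 genes per length, had FPKM of 189, 367, 176, 296 and 195 against 368, 387 and 429. Its highest cancer lay 1 unit under the lowest control (log2 fold change -0.75, limma adjusted p = 0.067, and 0.23 with TPM).

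**Figure D4:**
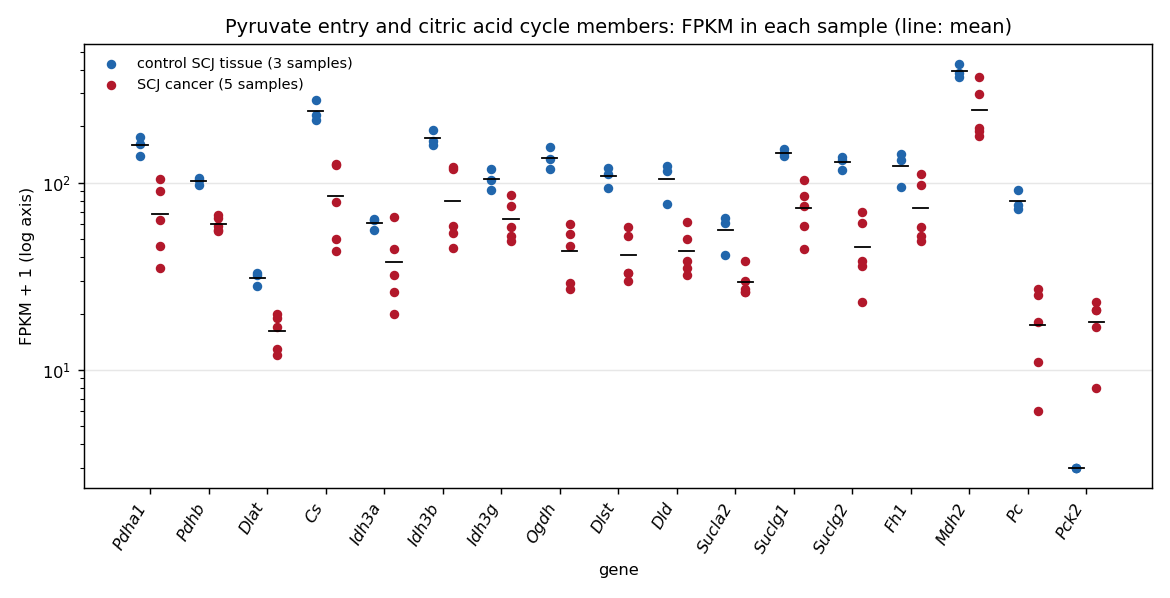
FPKM + 1 on a log axis for the 17 genes of pyruvate entry and the citric acid cycle, with a point for each sample (blue, 3 controls; red, 5 cancers) and a line at the group mean. Pck2 is the only gene with the cancers above the controls, and for all but Idh3a and Fh1 of the others every cancer lies below every control.

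The genes that tie the cycle to pyruvate and phosphoenolpyruvate outside its main route went in opposite directions. Pc, pyruvate carboxylase, which refills oxaloacetate (chromosome 19, 4510472 to 4621752), was at 10, 26, 5, 24 and 17 FPKM in cancers 1 to 5 and 71, 75 and 90 in controls 1 to 3. The controls were 4.80-fold higher in the mean, and the fall passed under both scalings (log2 fold change -2.39, standard error 0.49, limma adjusted p = 0.010, and -1.47 with TPM, adjusted p = 0.018). Pck2, the mitochondrial phosphoenolpyruvate carboxykinase, which draws oxaloacetate off towards phosphoenolpyruvate (chromosome 14, 55540266 to 55550017), had FPKM of 20, 16, 22, 7 and 20 against 2, 2 and 2. Every cancer was above the controls, and the log2 fold change of 2.49 was the highest of the 39 genes (standard error 0.34, limma adjusted p = 0.0027, and 3.45 with TPM). Ordered by mean FPKM per gene, Pck2 moved from rank 10492 in the controls to 3989 in the cancers, and Pc from 1162 to 4103. Both calls held without any single sample. The cytosolic form Pck1 was listed at 0 in all controls and in cancers 2, 3 and 4, and at 10 and 13 in cancers 1 and 5.

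The cancers were not alike as deposited. For 16 of the 17 genes of pyruvate entry and the citric acid cycle the 2 highest cancers were 2 and 4, which held for 7 of the 22 glycolysis genes and for 35 of 36 respiratory chain genes. The mean log2(FPKM + 1) of the 17 genes was 5.96 and 5.95 in cancers 2 and 4, 5.08, 5.19 and 5.42 in cancers 1, 3 and 5, and 6.48 to 6.59 in the controls. Cancers 2 and 4 also had the largest FPKM sums of the 5, and with TPM the count was 10 of 17, with means of 6.75 and 6.77 in cancers 2 and 4, 6.36, 6.35 and 6.56 in cancers 1, 3 and 5, and 6.50 to 6.76 in the controls. The gap among the cancers thus narrowed, and the groups overlapped on that scale. The mean of the 22 glycolysis genes was 4.47, 5.01, 4.59, 5.29 and 5.24 in cancers 1 to 5 and 5.49, 5.58 and 5.68 in the controls, and cancer 5 lay next to cancer 4. With TPM it was 5.69, 5.76, 5.70, 6.08 and 6.36 in cancers 1 to 5 and 5.55, 5.74 and 5.69 in controls 1 to 3, so that the direction of the glycolysis mean turned. Cancers 2 and 4 were then the highest for 3 of the 22 glycolysis genes and 30 of the 36 respiratory chain genes. The glycolysis mean minus the citric acid cycle mean was -0.61, -0.95, -0.60, -0.66 and -0.17 in cancers 1 to 5 and -0.99, -1.01 and -0.81 in controls 1 to 3. These differences, which do not depend on the scaling apart from the pseudocount, overlapped between groups through cancer 2.

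Markers of several cell types differed between the same samples. The 9 parietal cell markers had a summed FPKM of 25, 1901, 308, 3012 and 425 in cancers 1 to 5 and of 7467 to 13257 in the controls, so that cancers 2 and 4 were again the highest. One of the 9, Gif, was also counted as a chief cell marker under its other name Cblif, so the sum is not specific to parietal cells. Gif stood at 0, 520, 36, 434 and 178 in cancers 1 to 5 and at 2581, 4982 and 3374 in controls 1 to 3. Atp4a, the proton pump subunit that defines the cell, was listed at 0 in cancer 1 and at 370, 66, 810 and 67 in cancers 2 to 5, against 1643, 3437 and 3572. Atp4a did not pass (limma adjusted p = 0.068), nor did Atp4b (0.088) or the shared marker Gif (0.056), whereas 5 less abundant markers of the 9 passed as lower. The mucous cell markers followed with 692, 74468, 5273, 46371 and 15960 against 146267 to 214383, although 1 of their 7 genes passed. Squamous markers summed to 1 and 18 in cancers 1 and 2, to between 491 and 1992 in cancers 3 to 5 and to between 2768 and 4712 in the controls, with 2 of 9 passing as lower. All 7 neuroendocrine markers were higher, with sums of 7786 to 17299 in the cancers and 124 to 187 in the controls, Chga (chromogranin A) among them. Lymphocyte markers summed to 130 in cancer 1 and to at most 4 elsewhere, and hepatocyte markers to 567 in cancer 5, at most 60 in the other cancers and 1 in each control. The smooth muscle sum was 47, 1746, 564, 396 and 79, compared with 376 to 569 in the controls, and 0 of 9 markers passed. Fibroblast markers summed to 223, 320, 329, 233 and 62 against 72 to 133, with 0 of 6 passing as deposited and 5 higher with TPM. Of 6 macrophage and neutrophil markers 1, Csf1r, was higher as deposited and 4 with TPM. The Csf1r call was lost without cancer 3 or any single control (limma adjusted p 0.065 to 0.11). Of 6 proliferation markers 2, Ccnb1 and Aurkb, were higher as deposited and 6 with TPM. The Ccnb1 call was lost without cancer 3 or control 2 or 3 (limma adjusted p 0.064 to 0.099). The Aurkb call was lost without cancer 1, 2 or 3 or any single control (limma adjusted p 0.070 to 0.16). Beside these marker counts, 16.2% of all genes tested passed as higher and 18.3% as lower as deposited, and 50% as higher with TPM. Of 6 chief cell markers 1 was lower. Pgc was at 28832 in control 1 and listed at 0 in controls 2 and 3, and Chia1 was at 15020, 0 and 26833 in controls 1 to 3, so a listed 0 in these values need not be a low level. Striated muscle markers summed to at most 12 in any sample. The part of these cell types in the levels of the 39 genes was not tested.

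Leaving cancers out by pairs, a step chosen after the data were seen, changed the counts. Without cancers 2 and 4, which were the highest cancers for most citric acid cycle genes as deposited and whose removal therefore favours lower calls, 3 glycolysis genes were higher and 13 lower, and 1 gene of the citric acid cycle list was higher and 16 lower. Over all genes 6692 of 13936 then passed. Without cancers 1 and 5 the counts were 1 and 5, and 1 and 7, beside 3755 of 13840 over all genes, so that the counts of the members moved with those of all genes.

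**Figure D5:**
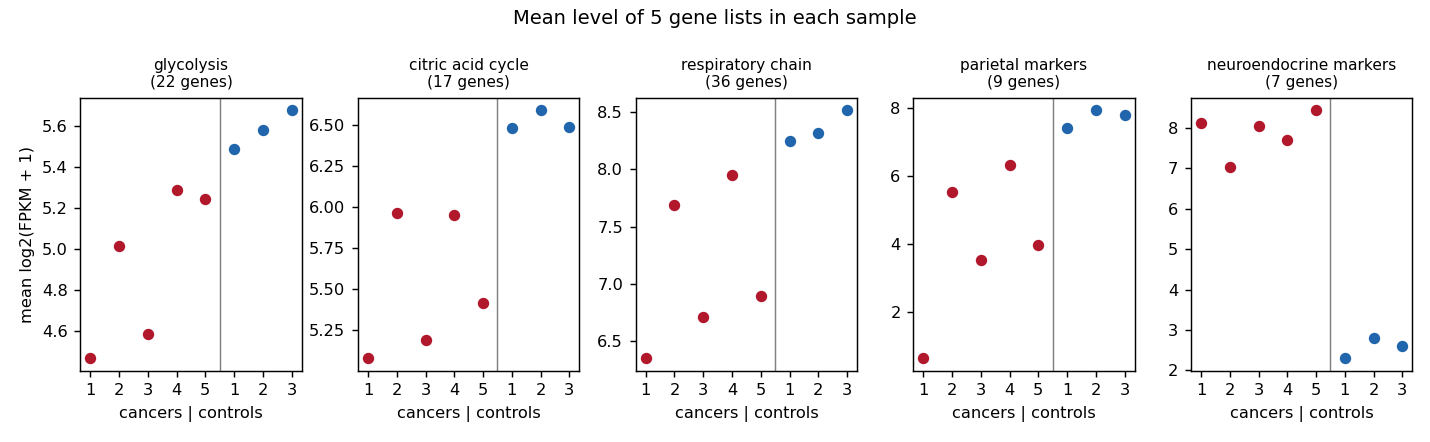
Mean log2(FPKM + 1) in each sample of the 22 glycolysis genes, the 17 citric acid cycle genes, 36 respiratory chain genes, 9 parietal cell markers and 7 neuroendocrine markers (red, cancers 1 to 5; blue, controls 1 to 3), each panel with its own axis. On FPKM as deposited, cancers 2 and 4 stand above the other cancers for the citric acid cycle, respiratory chain and parietal panels, whereas in the glycolysis panel cancer 5, at 5.24, lies beside cancer 4, at 5.29.

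The other genes of the 2 pathways gave the following picture. Of 25 further glycolysis genes 18 could be tested, 4 higher and 4 lower as deposited, against 8 higher and 2 lower with TPM. Over all genes tested, 16.2% were higher and 18.3% lower as deposited, and 50% higher and 3.68% lower with TPM. As deposited the further glycolysis genes, at 22.2% in each direction, lay near those shares. Gapdh, the remaining central enzyme, did not pass, at 377, 651, 403, 806 and 534 against 636, 673 and 716 (log2 fold change -0.34, limma adjusted p = 0.37, and 0.63 with TPM). Slc2a5, the fructose transporter, rose, at 38, 14, 30, 10 and 19 against 2, 3 and 4 (log2 fold change 2.42, limma adjusted p = 0.0060). The insulin-regulated glucose transporter Slc2a4 fell, from 13, 25 and 33 to 2, 9, 2, 9 and 1 (log2 fold change -2.37, limma adjusted p = 0.024), and lost its call without cancer 1 or 3 or control 2 or 3 (0.051 to 0.092).

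Among further isozymes, Slc2a3 (GLUT3) was listed at 0 in every control and at 4, 2, 7, 1 and 1 in the cancers (limma adjusted p = 0.024). Slc2a3 reached a value of 1 only in the cancers. It thus entered the test through the group where it was high, and its adjusted p is no support for a rise. Eno3, the muscle enolase, had FPKM of 5, 3, 4, 3 and 2 against 2, 1 and 1 (log2 fold change 0.90, limma adjusted p = 0.031), with cancer 5 level with control 1. Pfkfb2 fell by 0.86 on the log2 scale (limma adjusted p = 0.014) and turned to 0.02 with TPM. The Slc2a3 call was lost without any single control (0.074 to 0.077), that of Eno3 without cancer 3 or control 2 or 3 (0.068 to 0.11) and that of Pfkfb2 without control 2 (0.058). Hkdc1, Pgam2 and Pfkfb1 did not pass. The hexokinase Hk3 was listed at 1 in cancers 1 and 5 and at 0 elsewhere, and was not tested.

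For pyruvate entry beyond the dehydrogenase subunits, 6 of 9 further genes passed as lower and 0 as higher as deposited, against 2 lower and 2 higher with TPM. Over all genes tested, 18.3% passed as lower as deposited, and 3.68% as lower and 50% as higher with TPM. Mpc1, a subunit of the mitochondrial pyruvate carrier, had FPKM of 31, 80, 30, 112 and 40 against 176, 172 and 248 (log2 fold change -1.93, limma adjusted p = 0.018, and -0.97 with TPM), and lost its call without any single control (0.051 to 0.070). Pdpr, the regulatory subunit of pyruvate dehydrogenase phosphatase, and Pdhx, the binding protein of the E3 subunit, fell by 1.76 and 1.08 on the log2 scale (limma adjusted p = 0.0043 and 0.010), and both calls held without any single sample. Pdk2 changed by -0.99 (limma adjusted p = 0.018, and 0.062 and 0.068 without control 2 or 3).

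Of 19 further genes of the citric acid cycle and its exchange routes, 14 were lower and 1 was higher as deposited, against 3 lower and 2 higher with TPM. The shares over all genes tested were 18.3% lower as deposited, and 3.68% lower and 50% higher with TPM. Me2, the mitochondrial malic enzyme, had FPKM of 11, 85, 12, 22 and 19 against 174, 156 and 156 (log2 fold change -2.84, limma adjusted p = 0.012, and -1.90 with TPM), with its call holding without any single sample. Me1 and Me3, the other malic enzymes, fell by 2.09 and 2.06 on the log2 scale (limma adjusted p = 0.015 and 0.016), but their calls were lost without control 1 or 3 and without control 2 or 3, respectively (0.053 to 0.065). The exception was Ogdhl, a relative of Ogdh found mainly in brain, which rose from 1, 1 and 0 to 10, 5, 9, 4 and 13 FPKM (log2 fold change 2.43, limma adjusted p = 0.0049, and 3.36 with TPM) and passed without any single sample. Ogdh and Ogdhl thus changed in opposite directions, as Eno1 and Eno2 did, and their difference was not tested.

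The counts in this paragraph stand beside 16.2% of all genes higher and 18.3% lower as deposited, and 50% higher and 3.68% lower with TPM. In the neighbouring pentose phosphate pathway 4 of 7 genes were lower and 0 higher as deposited, against 0 lower and 1 higher with TPM. The lower genes included Pgd and G6pdx, the enzymes that make NADPH (log2 fold changes -1.80 and -1.70, limma adjusted p = 0.022 and 0.037). Both lost their call without any single control, and G6pdx also without cancer 3 or 5 (0.060 to 0.12). Of 36 respiratory chain genes 18 were lower and 0 higher as deposited, against 2 lower and 2 higher with TPM, and their median log2 fold change was -1.30 (-0.33 with TPM). Of 20 hypoxia genes and metabolic regulators 2 were higher and 3 lower as deposited, against 11 higher and 1 lower with TPM. The 25% of this list called as deposited lay below the 34.5% of all genes. With TPM, 11 of 20 higher lay near the 50% of all genes, so neither count sets the list apart. Of the 5 called as deposited, Mlxipl (ChREBP, a glucose-responsive factor) was listed at 0 in the controls and at 10, 7, 13, 1 and 4 in the cancers (limma adjusted p = 0.013). Mlxipl reached a value of 1 only in the cancers. It thus entered the test through the group where it was high, and its adjusted p is no support for a rise. The others were Vegfa (log2 fold change 0.99, limma adjusted p = 0.018), and Car9, Egln3 and Esrra (-3.22, -2.41 and -2.01, limma adjusted p = 0.038, 0.021 and 0.044). Hif1a did not pass as deposited (0.02, limma adjusted p = 0.97) and passed as higher with TPM (0.97, limma adjusted p = 0.047). Only the Mlxipl call held without any single sample, those of Egln3, Car9 and Esrra were lost without any single control and that of Vegfa without control 1 or 2 (0.051 to 0.14 over these fits), and Car9 and Esrra also lost theirs without cancer 3 or 5.

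The deleted genes were examined as well. Rb1 fell from 9, 9 and 10 FPKM to 4, 4, 5, 6 and 4 (log2 fold change -0.90, limma adjusted p = 0.0059). Trp53 was at 12, 22, 12, 30 and 12 against 16, 17 and 19 (-0.08, limma adjusted p = 0.87), with cancers 2 and 4 above every control and the other cancers below. Values for whole genes mix deleted exons with those that remain, so Trp53 gave no check of the labels here.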

How the data were processed

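Poly(A)-selected, strand-specific RNA-seq of 5 SCJ cancers and 3 control SCJ tissues was used. The authors trimmed reads with cutadapt 1.8, aligned them with TopHat2 2.0.13 and quantified UCSC mm10 genes with cuffquant and Cuffnorm 2.2.1. The Cuffnorm normalization option was not given in the sources used here. The deposited values are FPKM rounded to whole numbers (100% whole) and were treated as a score, not as counts. Depth is unknown, so no counting interval is given, and zeros are reported as listed. The controls were separate stomachs, and the labels do not tie each cancer to its own mouse, so p-values measure the spread between these samples.

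Values were tested as log2(FPKM + 1) by limma 3.58.1 (two-sided, lmFit followed by eBayes with a trend) in R 4.3.3, keeping the 14357 of 23361 genes that reached a value of 1 in 3 or more of the 8 samples. Fold changes on this scale understate the change of low genes. Exact permutation tests used scipy 1.17.1. Alternatives were pseudocounts of 0.1 and 0.5, no filter, a mean of at least 5, TPM, median-of-ratios and quantile scaling, array weights, a replicate block, eBayes without trend and each sample left out. All 39 genes are named, with Gapdh, other isozymes of their families, near-identical copies, Trp53, Rb1 and up to 4 called genes of each further list with the largest change and up to 3 of each marker list. Hif1a, Vegfa and Chia1 were outside that rule and were named after their values were seen. A pair of further glycolysis genes that the rule names is not reported here. The genes and lists were chosen with earlier results of these data known.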

Additional observations from a re-analysis of the deposited data

Results flagged for a closer look

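Pfkfb4 and Pck2 each had a cancer that stood apart from the other cancers by Dixon's ratio, the gap to the nearest sample divided by the range of the group, taken on log2(FPKM + 1). The ratio has a 95% critical value of 0.71 for 5 samples. It was 1.0 for Pfkfb4, where cancer 1 was at 1 FPKM and the others at 2, a gap of a single rounding step. It was 0.71 for Pck2, just past the critical value, where cancer 4 was at 7 FPKM and the others between 16 and 22, but 0.60 on FPKM itself, below the critical value. In all 51 results were examined and 2 stood apart, and chance alone marks about 5% of groups.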

How the results depend on the processing

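With TPM, 7704 genes passed over all, with 6 glycolysis genes higher and 1 lower (median log2 fold change 0.024) and 2 citric acid cycle genes lower (median -0.076). TPM also turned Hk2 (0.80), Gpi1 (0.61), Pfkp (0.57), Aldoa (0.39), Tpi1 (0.43), Pgk1 (0.17), Pgam1 (0.072), Pdhb (0.20), Idh3a (0.13), Idh3g (0.23), Sucla2 (0.044), Fh1 (0.16) and Mdh2 (0.23) above 0, all below the median of all genes at 0.81. With quantile normalization 5 glycolysis genes (median -0.44) and 7 citric acid cycle genes (median -0.69) were lower, and Gpi1 (0.12) and Tpi1 (0.0023) turned. Array weights gave 8148 genes over all. A replicate block gave 1534 genes over all, with 1 glycolysis gene higher, 2 lower and 0 citric acid cycle genes lower, but the samples share only a number, since same-numbered samples did not vary together (correlation of deviations -0.02, -0.19 and -0.10). A mean of at least 5 left 1 glycolysis gene higher. Without cancers 1 and 5, 1 glycolysis gene was higher and 5 lower, 7 citric acid cycle genes were lower and Pfkm was at -0.029, and without cancers 2 and 4 Hk2 was at 0.20. The cause was not tested for any of these. Leaving out one sample gave 2490 (without control 1) to 5252 genes over all, 1 to 2 glycolysis genes higher and 3 (without control 2 or 3) to 13 lower, and 6 (without control 1 or 2) to 15 citric acid cycle genes lower. Of 26 called genes, 11 kept their call without any single sample. Hk2 ranged from -0.32 to 0.17 and Pfkm from -0.18 to 0.16 on the log2 scale, and the Pfkfb4 share difference from -6.15 to 1.35 percentage points, with 0.0090 for the log2 ratio to its partner. The pseudocounts, median-of-ratios scaling, no filter and eBayes without trend kept every count and median of the 2 lists within 1.5 times or 1 SD and every direction, and moved the calls of Tpi1, Pgk1 and Idh3g only. Rounded low values (Eno2, Pfkfb4, Pdk1) and unknown depth limit the precision, and 5 against 3 samples cannot give an exact permutation p below 0.018.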
